A study of Mus musculus with 4 samples.

Results

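The pluripotency loci described here are 4 windows of mouse build mm8, 830 bins of 1 kb in all, set beside the 2277147 bins of chromosomes 1 to 19, X and Y that held a read in any library. They were set as positions around named genes, and 1, 2, 6 and 2 of their bins, in the order below, held no read in any library. The Pou5f1 window covered 50 kb of chromosome 17 (35090001 to 35140000), the window of Nanog with Dppa3 and Gdf3 covered 230 kb of chromosome 6 (122530001 to 122760000), the Sox2 window covered 300 kb of chromosome 3 (34700001 to 35000000) and the Myc window covered 250 kb of chromosome 15 (61700001 to 61950000). Chromatin immunoprecipitation with sequencing (ChIP-seq) had been run in mouse embryonic fibroblasts (MEF), grown in DMEM with FBS, on 3 histone marks, H3K4me3, H3K27me3 and H3K9me3, and in secondary MEF on H3K9me3 with the same antibody lot. Strain and age of the MEF embryos were not given in the sources used here. Secondary MEF were harvested at 13.5 dpc from chimeras made by injecting induced pluripotent stem (iPS) cells into BDF2 blastocysts. The injected iPS cells carried inducible Oct4, Klf4 and Sox2 and an Oct4-selectable cassette and had been derived in Wnt3a-conditioned medium. Their fibroblast progeny were selected for 48 hours with puromycin at 2 µg/ml and cultured with cosmic calf serum, and the labels do not say whether doxycycline was given. Oct4 is the protein of Pou5f1, so reads from inserted Oct4 or Sox2 sequence would align to the Pou5f1 and Sox2 windows. With 1 library in each of the 4 groups, no value has replicates behind it and libraries, not conditions, are compared.

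The members differ in what is known of them. Pou5f1, Nanog and Sox2 encode transcription factors that hold embryonic stem cells in the pluripotent state, Dppa3 encodes a protein of germ cells and the early embryo that protects maternal DNA methylation, and Gdf3 encodes a TGF-beta family ligand. Pou5f1, Nanog, Dppa3 and Gdf3 are silent in fibroblasts, and Sox2 stays active in neural tissue. Myc encodes a growth-promoting transcription factor that proliferating cells of many kinds use. H3K4me3 marks the promoters of active genes, and where it meets H3K27me3, the mark of Polycomb repressive complex 2, promoters are called bivalent. H3K9me3 marks heterochromatin and is known as a barrier to reprogramming.

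Promoter sequences are shown because H3K4me3 and Polycomb are both known to favour CpG-rich DNA. RefSeq sequences on build GRCm38.p6, of 250 bases before to 50 bases from the gene start, were matched for 3 of the 6 members. Capitals mark CpG dinucleotides, and each sequence runs 5′ to 3′ on the plus strand.
Pou5f1 (chr17:35505782-35506081): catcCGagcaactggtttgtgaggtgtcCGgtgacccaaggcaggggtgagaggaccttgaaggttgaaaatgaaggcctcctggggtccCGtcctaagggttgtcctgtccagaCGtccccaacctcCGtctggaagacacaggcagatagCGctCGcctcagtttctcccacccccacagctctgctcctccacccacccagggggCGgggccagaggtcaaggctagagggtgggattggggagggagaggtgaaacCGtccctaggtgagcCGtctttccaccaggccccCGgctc
Nanog (chr6:122707239-122707538): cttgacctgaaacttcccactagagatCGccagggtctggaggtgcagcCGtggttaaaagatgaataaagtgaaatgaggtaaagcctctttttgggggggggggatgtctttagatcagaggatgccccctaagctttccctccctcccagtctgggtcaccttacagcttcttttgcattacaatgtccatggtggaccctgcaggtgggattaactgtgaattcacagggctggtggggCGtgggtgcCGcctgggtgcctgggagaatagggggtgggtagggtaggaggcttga
Sox2 (chr3:34649745-34650044): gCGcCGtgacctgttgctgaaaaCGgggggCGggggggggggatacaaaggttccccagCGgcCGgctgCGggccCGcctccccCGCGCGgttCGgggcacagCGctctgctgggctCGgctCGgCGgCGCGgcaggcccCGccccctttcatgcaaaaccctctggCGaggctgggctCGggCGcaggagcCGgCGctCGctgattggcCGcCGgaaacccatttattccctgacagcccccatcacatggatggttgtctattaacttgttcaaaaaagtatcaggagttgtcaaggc
Sox2 was the CpG-rich promoter of the 3, with 27 CpG and a ratio of observed to expected CpG of 0.819. The Pou5f1 promoter held 11 CpG at a ratio of 0.374, and the Nanog promoter held 4 at 0.192. Among 19827 promoters, taken as 1 for each gene, the median was 5 CpG at a ratio of 0.312. Fewer CpG than in Sox2, Pou5f1 and Nanog were found in 88.1%, 66.3% and 37.8% of these promoters. The letters ATGCAAA, the core of the octamer that Oct4 binds, were searched on both strands and occurred once each in the Sox2 and Nanog promoters and not in that of Pou5f1, with a match in 4.97% of all promoters. These coordinates belong to GRCm38.p6 and are not those of the read files. On mm8 only the Pou5f1 start came with its window, near position 35114100 of chromosome 17. Where the other 5 genes start on that build was not used here, so their windows are described by position.

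Levels are fold over a library's own mean per 1 kb bin, which was 5.38 reads in the H3K4me3 library, 4.30 in the H3K27me3 library, and 3.91 and 3.51 in the H3K9me3 libraries of MEF and secondary MEF. Calls required at least 2-fold and a 1-sided Poisson value under 0.001 after Benjamini-Hochberg adjustment over all bins, which took at least 18, 16, 15 and 15 reads in that order, or 3.35-fold, 3.72-fold, 3.83-fold and 4.28-fold. Called bins made up 3.09%, 3.72%, 1.65% and 1.28% of all bins. A bin without reads allows a level of up to 0.558-fold, 0.698-fold, 0.767-fold and 0.855-fold (3 reads). Intervals are at the 95% level and cover counting error only, with each read taken as an independent count. PCR copies are not independent molecules, so the intervals can be too narrow even for that. Stretches are called bins of 1 library joined over gaps of at most 3 kb.

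The Pou5f1 start lay in H3K27me3, without called H3K4me3. In the bin that holds the start (35114001 to 35115000) there were 4 H3K4me3 reads (0.744-fold, 0.203 to 1.90) and 22 H3K27me3 reads (5.12-fold, 3.21 to 7.75). The H3K9me3 libraries had 13 reads there in MEF (3.32-fold, 1.77 to 5.68) and 19 in secondary MEF (5.42-fold, 3.26 to 8.46). H3K27me3 and secondary MEF H3K9me3 were thus called at the start, whereas H3K4me3 and MEF H3K9me3 were not. The ratio of H3K9me3 read shares in this bin, secondary MEF over MEF, was 1.63 (0.764 to 3.59), an interval that includes 1.

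The H3K27me3 around Pou5f1 varied from bin to bin, between 2.56-fold and 8.61-fold. Its stretch ran 10 kb, from 35108001 to 35118000, from 6.1 kb before the start to 3.9 kb after it, at a mean of 4.93-fold, with 7 of its 10 bins called. The 5 kb before and the 5 kb after the start held 99 H3K27me3 reads each (4.61-fold, 3.75 to 5.61). A second stretch, 35094001 to 35099000, reached 5.82-fold. The highest bin of the window, 35112001 to 35113000, reached 8.61-fold (6.06 to 11.9), and 0.546% of all bins were as high or higher. In 200 bp steps the highest H3K27me3 level within 5 kb of the start was 15.1-fold (13 reads) in the step that begins 2000 bp after it. H3K4me3 over the same 10 kb around the start had 43 reads (0.800-fold, 0.579 to 1.08). The 5 kb before the start were at 0.595-fold (0.34 to 0.966) and the 5 kb after it at 1-fold (0.662 to 1.46).

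A strong H3K4me3 peak stood 8.9 kb past the Pou5f1 start. Its 4 bins, 35123001 to 35127000, were at 5.39-fold, 34.4-fold, 40.4-fold and 7.44-fold, and they were the only H3K4me3 bins called in the window. None of them was called for H3K27me3, which lay between 0.698-fold and 2.56-fold. The next protein-coding genes past Pou5f1 in the RefSeq table are Tcf19 and Cchcr1, and the peak was not assigned to a gene. The window's mean H3K4me3 of 2.38-fold (2.20 to 2.58) rested on this peak, which held 73.5% of its reads, and the median bin was at 0.558-fold. For H3K27me3 the window's mean was 2.42-fold (2.22 to 2.64), above 91.2% of 33134 autosomal windows of equal length, with 9 of 50 bins called (18.0%, against 3.72% of all bins).

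H3K9me3 at Pou5f1 was called in 1 of 50 bins in MEF (2%, against 1.65% of all bins) and in 3 in secondary MEF (6%, against 1.28%). No bin was called in both libraries. Of all MEF H3K9me3 bins 24.4% were also called in secondary MEF, and 1 MEF bin is too few to differ from that share. MEF had a single called bin, 35115001 to 35116000, at 3.83-fold (2.15 to 6.32) from 15 reads, where secondary MEF had 4 reads (1.14-fold). Secondary MEF had 3: 35112001 to 35113000 and 35117001 to 35118000 at 4.28-fold each, and the start bin at 5.42-fold. In the 600 bp from the start on, the 3 steps of 200 bp held 4, 5 and 7 secondary MEF reads and 1, 1 and 4 MEF reads. Over the whole 10 kb H3K27me3 stretch the libraries were alike in read share, with 88 reads in MEF and 81 in secondary MEF, a ratio of 1.03 (0.750 to 1.41). With stricter calls (3-fold, adjusted value under 1e-06), which 0.319% of all MEF and 0.363% of all secondary MEF bins passed, the Pou5f1 window had no H3K9me3 bin in either library. With bins moved by 500 bp MEF had 2 and secondary MEF 1 (1.64% and 1.28% of all bins), and with reads of 2 locations added at a weight of 0.5 MEF had 0 (1.23%). Whether reads from the inserted Oct4 sequence add to the secondary MEF counts was not tested.

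**Figure D1:**
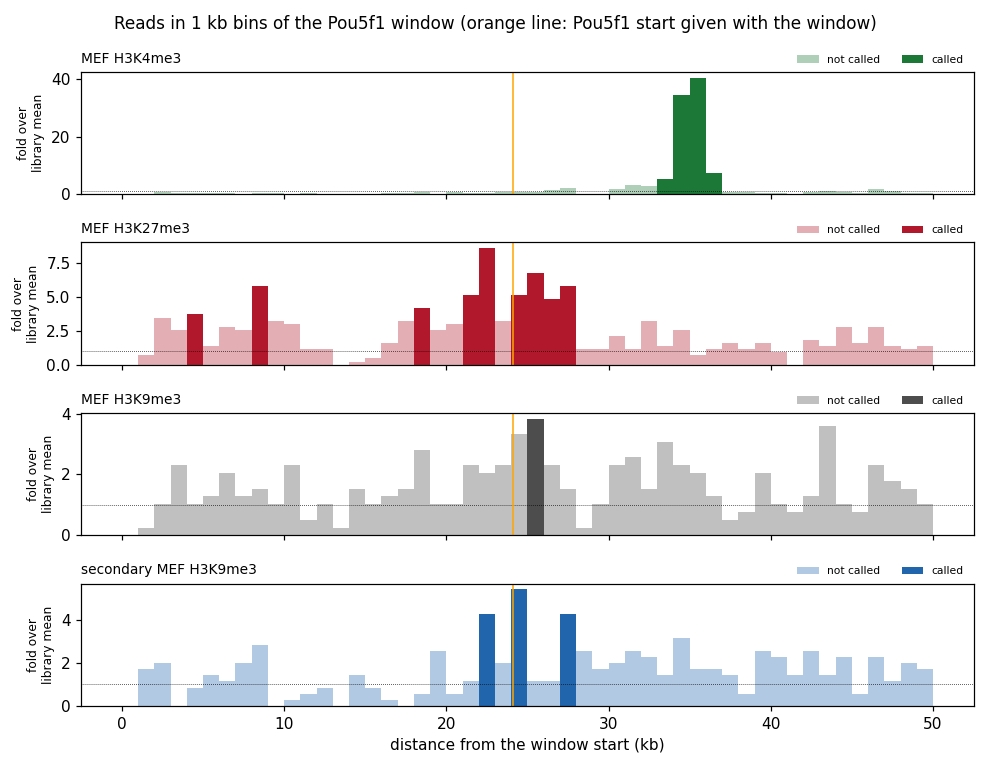
Fold over the library mean in each 1 kb bin of the Pou5f1 window (vertical axes, 1 panel for each library) against distance from the window start in kb; dark bars are called bins, pale bars are not, and the dotted line is the library mean. H3K27me3 bars surround the orange line at the Pou5f1 start, and H3K4me3 reaches 40.4-fold past that start.

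The window of Nanog, Dppa3 and Gdf3 held a row of separate peaks. Of its 230 bins 10 were called for H3K4me3 (4.35%, against 3.09% of all bins) and 18 for H3K27me3 (7.83%, against 3.72%), in 6 and 8 regions of adjacent bins. H3K27me3 regions reached 6 kb there and H3K4me3 regions 2 kb. Window means were 1.12-fold for H3K4me3 (1.07 to 1.19) and 1.55-fold for H3K27me3 (1.47 to 1.63), above 57.4% and 75.1% of 7002 autosomal windows of equal length. In the RefSeq table the protein-coding genes run Apobec1, Gdf3, Dppa3, Nanog, Slc2a3. Apobec1 encodes an RNA-editing enzyme and Slc2a3 a glucose transporter. No peak was assigned to any of them.

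The 3 highest H3K4me3 regions of this window differed in H3K27me3. The highest bin, 122730001 to 122731000, had 197 H3K4me3 reads (36.6-fold, 31.7 to 42.1) and H3K27me3 at 6.98-fold (4.71 to 9.97), and both marks were called. The region from 122567001 to 122569000 reached 19.2-fold (15.6 to 23.2) with H3K27me3 at 0.931-fold, so it carried H3K4me3 without H3K27me3. The region from 122707001 to 122709000 carried both marks at similar height, at 16.0-fold (12.8 to 19.8) and 10.0-fold (7.24 to 13.5) in its highest bin and at 8.37-fold and 8.61-fold in the next. H3K27me3 reached further there, over 5 kb from 122706001 to 122711000, while H3K4me3 had dropped to 0.186-fold in the bin from 122709001. A further region, 122668001 to 122670000, had 13.2-fold H3K4me3 in its highest bin and 2.33-fold H3K27me3. In all 3 of the 10 H3K4me3 bins were also H3K27me3 bins (30.0%, against 19.2% of all called H3K4me3 bins).

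The longest H3K27me3 stretch of the Nanog window had little H3K4me3. It ran 9 kb, from 122626001 to 122635000, with 8 bins called at a mean of 5.66-fold, and peaked at 11.2-fold (8.24 to 14.8) from 122628001 to 122629000. H3K4me3 averaged 0.682-fold over it and reached 2.05-fold in the peak bin. The bin right after it, from 122635001, was called for H3K4me3 at 4.84-fold and had H3K27me3 at 0.931-fold, so both marks met at an edge without overlap. It lay 71 kb before the stretch with both marks. With stricter calls the window had 9 H3K27me3 bins (1.96% of all bins passed), and 10 when the remaining MEF marks in each bin served as background (1.78%).

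H3K9me3 in the Nanog window was called in 3 MEF bins and 2 secondary MEF bins (1.30% and 0.870%, against 1.65% and 1.28% of all bins). The highest was the same in both, 122671001 to 122672000, with 20 reads in MEF (5.11-fold, 3.12 to 7.89) and 26 in secondary MEF (7.41-fold, 4.84 to 10.9). H3K4me3 was at 2.23-fold there (1.15 to 3.9) and H3K27me3 at 3.26-fold (1.78 to 5.47), and both intervals overlap that of MEF H3K9me3. This bin began 1 kb past the H3K4me3 region that ends at 122670000. The bin from 122707001, with both other marks, was also called in both, at 4.34-fold and 5.13-fold. The remaining MEF bin was that of the highest H3K4me3, at 3.83-fold. With stricter calls MEF had 0 bins and secondary MEF 1.

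**Figure D2:**
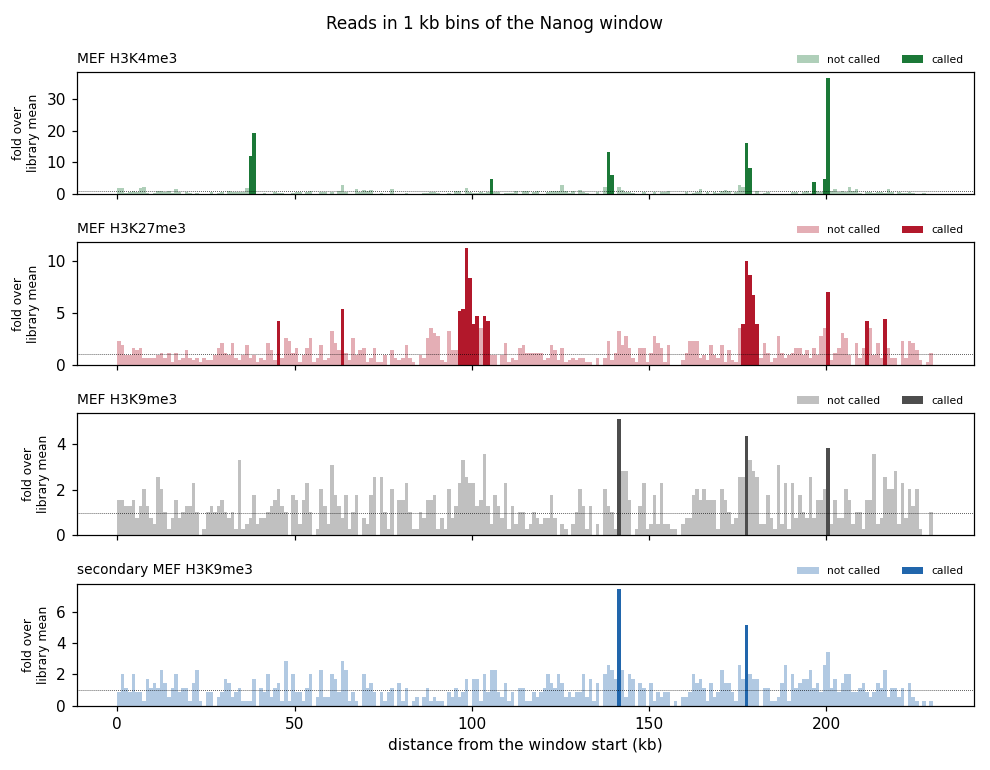
Fold over the library mean in each 1 kb bin of the window of Nanog, Dppa3 and Gdf3, drawn as for Pou5f1, against distance from the window start in kb. H3K4me3 peaks reach 36.6-fold, with called H3K27me3 in the bins at 36.6-fold and 16.0-fold. A 9 kb H3K27me3 stretch has no called H3K4me3 bin.

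The Sox2 window held the highest single H3K27me3 bin of the 4 windows, while its mean of 2.24-fold (2.16 to 2.32) and that of the Pou5f1 window, 2.42-fold (2.22 to 2.64), had overlapping intervals. H3K27me3 was called in 36 of 300 bins (12.0%, against 3.72% of all bins), of which 33 lay in a single 40 kb stretch from 34826001 to 34866000 at a mean of 9.04-fold. Among 1090 autosomal H3K27me3 stretches of 20 kb or more, 91.2% had a lower mean and 73.2% were shorter. The highest bin, 34842001 to 34843000, had 152 reads (35.4-fold, 30.0 to 41.5), and 0.00707% of all bins were as high or higher. The called bins of the window held 53.7% of its 2889 H3K27me3 reads.

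H3K27me3 over the Sox2 stretch had several summits. The bins from 34833001 and 34834001 were at 16.8-fold and 20.7-fold. From 34840001 on, 3 bins were at 20.7-fold, 11.9-fold and 35.4-fold, and the next bin was at 2.33-fold. Another summit covered 4 bins from 34853001 to 34857000, at 18.9-fold, 18.9-fold, 19.1-fold and 17.0-fold. Between the last of these summits the bins from 34845001 to 34848000 were at 4.42-fold each.

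Called H3K4me3 at Sox2 lay in H3K27me3 bins, at a lower fold than H3K27me3. All 7 H3K4me3 bins of the window (2.33%, against 3.09% of all bins) were also H3K27me3 bins, against 19.2% of H3K4me3 bins at large. They were at 5.21-fold at the first summit, at 3.72-fold, 5.95-fold and 10.8-fold from 34840001 to 34843000, at 5.95-fold and 6.88-fold from 34855001 to 34857000, and at 6.69-fold in an isolated bin from 34987001 with 8.85-fold H3K27me3. In each of the 7 the fold over the library mean was higher for H3K27me3 than for H3K4me3. In the highest bin H3K4me3 had 58 reads (10.8-fold, 8.19 to 13.9), a level reached by 1.26% of all bins. With the other MEF marks as background 0 bins of the window were called for H3K4me3 (2.17% of all bins passed). A call there took at least 2-fold over the mean fold of H3K27me3 and H3K9me3 in the bin. With H3K27me3 above H3K4me3 in each of the 7, this outcome was fixed in advance and does not measure H3K4me3. Over all 300 bins of the window, these 7 included, the median H3K4me3 bin was at 0.372-fold and the mean at 0.653-fold (0.615 to 0.694), above 35.4% of 5340 autosomal windows of equal length.

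The H3K9me3 calls of MEF in the Sox2 window lay largely in H3K27me3 bins. Of the window's bins 17 were called in MEF (5.67%, against 1.65% of all bins) and 1 in secondary MEF (0.333%, against 1.28%). None of the 17 was also called in secondary MEF, against 24.4% of all MEF H3K9me3 bins. H3K27me3 was called in 12 of the 17 (70.6%, against 51.6% of all MEF H3K9me3 bins). The highest MEF bin, 34855001 to 34856000, had 28 reads (7.15-fold, 4.75 to 10.3) with 11 in secondary MEF (3.14-fold, 1.57 to 5.61). It was followed by 34861001 to 34862000 (5.88-fold, with 1.14-fold in secondary MEF), inside the stretch, and by 34705001 to 34706000 (5.62-fold), outside it. In the highest H3K27me3 bin MEF had 22 reads (5.62-fold) and secondary MEF 8 (2.28-fold). Across the 300 bins Pearson's r with H3K27me3 was 0.64 for H3K9me3 of MEF and 0.28 for that of secondary MEF, as a description, since bins share libraries, mappability and base composition. The 1 secondary MEF call was the bin from 34840001, at 4.56-fold. Secondary MEF had 0 calls without the read shift (1.26% of all bins) and with stricter calls, 3 with 1 read per position (1.52%) and 2 with bins moved by 500 bp. With stricter calls MEF had 6.

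**Figure D3:**
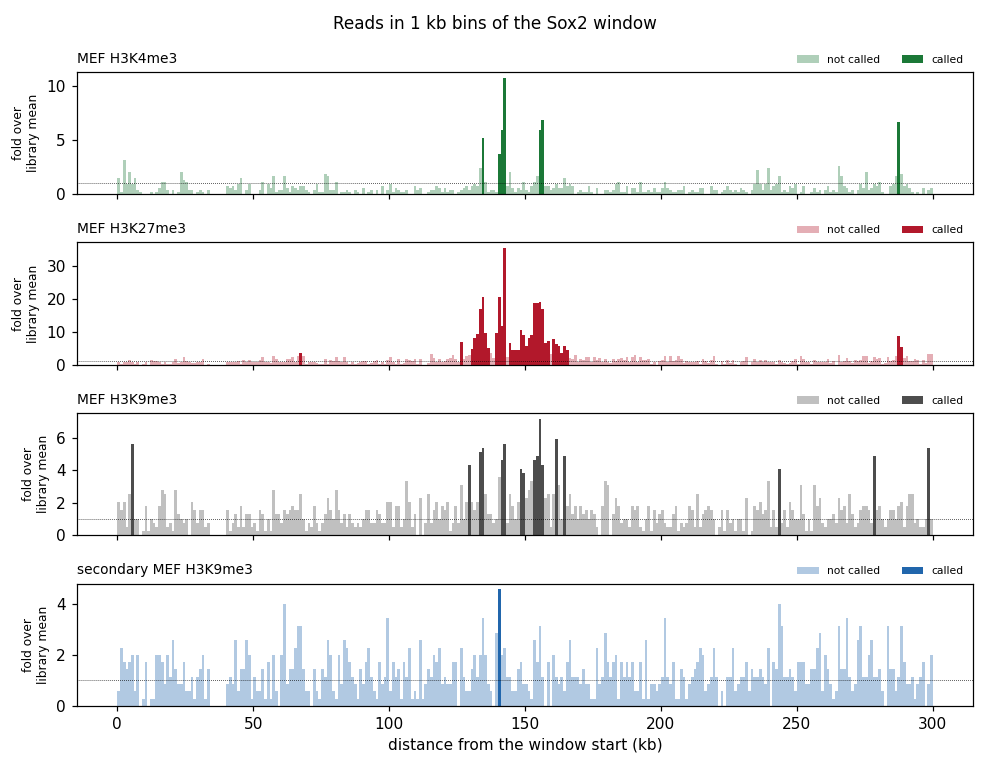
Fold over the library mean in each 1 kb bin of the Sox2 window, drawn as for Pou5f1, against distance from the window start in kb. H3K27me3 fills a 40 kb stretch that reaches 35.4-fold. H3K4me3 of up to 10.8-fold and called MEF H3K9me3 bins sit within it, and secondary MEF H3K9me3 shows 1 called bin.

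The Myc window had the opposite makeup. H3K4me3 was called in 28 of 250 bins (11.2%, against 3.09% of all bins), in 9 regions that held 78.9% of the window's 4026 reads, and H3K27me3 in none. The highest H3K27me3 bin, 61866001 to 61867000, had 14 reads (3.26-fold) and was under the call. The window's H3K27me3 mean was 0.997-fold (0.938 to 1.06) and its H3K4me3 mean 2.99-fold (2.90 to 3.09), above 47.0% and 92.9% of 6405 autosomal windows of equal length.

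The highest H3K4me3 of the 4 loci was in this window. The 8 kb region from 61813001 to 61821000 had a mean of 42-fold, above 99.4% of 1708 autosomal H3K4me3 stretches of 8 kb or more. Its bins, in order along the chromosome, were at 8.55-fold, 38.5-fold, 78.7-fold, 60.1-fold, 122-fold, 13.0-fold, 11.3-fold and 4.09-fold. The bin at 122-fold, 61817001 to 61818000, had 654 reads (112 to 131) at 527 distinct positions, and 0.00773% of all bins were as high or higher. H3K4me3 thus had 2 summits in this region, 2 kb apart between the bins from 61815001 and 61817001. No peak of the window was assigned to Myc or to another gene.

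A second H3K4me3 block began 50 kb past the highest bin. From 61867001 to 61875000, 8 adjacent bins were called, led by 56.0-fold (49.8 to 62.7), 44.6-fold and 44.8-fold. Joined over short gaps it reached 61884000, or 17 kb, at a mean of 12.8-fold, with a further summit of 12.5-fold from 61879001. Smaller H3K4me3 regions followed towards the window's end, among them 61908001 to 61911000 at 5.95-fold and 61948001 to 61950000 at 9.30-fold in their highest bins. Before 61813001, over 113 kb, no bin was called for H3K4me3, so the mark lay on 1 side of the window.

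The highest H3K9me3 bin of the Myc window was, in both libraries, the bin with the highest H3K4me3. In the 122-fold bin MEF had 22 reads (5.62-fold, 3.52 to 8.51) and secondary MEF 31 (8.84-fold, 6.01 to 12.5), and both were called. Of the 14 secondary MEF bins called in the window (5.60%, against 1.28% of all bins) 10 were H3K4me3 bins (71.4%, against 45.2% of all secondary MEF H3K9me3 bins). MEF had 3 called bins (1.20%, against 1.65%), 2 of them H3K4me3 bins (against 23.5% of all MEF H3K9me3 bins). All 3 were called in secondary MEF too, against 24.4% of all MEF H3K9me3 bins. The next highest secondary MEF regions, 61871001 to 61873000 and 61931001 to 61933000, each reached 5.99-fold. In the latter, away from H3K4me3 (1.12-fold and 1.67-fold), secondary MEF was at 5.99-fold and 4.28-fold and MEF at 2.81-fold and 4.34-fold. With stricter calls MEF had 1 bin and secondary MEF 4, and with bins moved by 500 bp MEF had 5. Input libraries were not used here, and the part of H3K4me3-rich chromatin in these H3K9me3 counts was not tested.

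**Figure D4:**
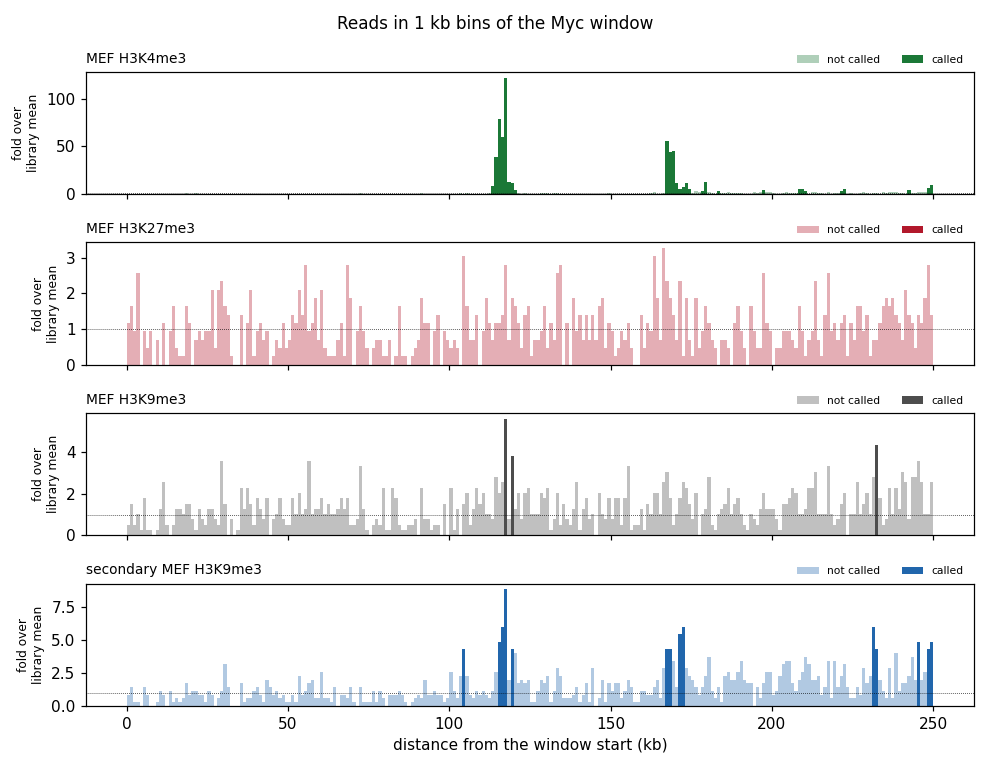
Fold over the library mean in each 1 kb bin of the Myc window, drawn as for Pou5f1, against distance from the window start in kb. H3K4me3 reaches 122-fold in a first block and 56.0-fold in a second, no H3K27me3 bin is called, and secondary MEF H3K9me3 has 14 called bins.

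The comparison of the H3K9me3 libraries asks whether the loci carry the mark alike in ordinary and secondary fibroblasts. Over whole windows the ratio of read shares, secondary MEF over MEF, was 1.03 for Pou5f1 (0.872 to 1.21), 0.870 for Nanog (0.795 to 0.95), 0.866 for Sox2 (0.806 to 0.93) and 1.16 for Myc (1.07 to 1.25). All 4 lay within the central 95% of autosomal windows of equal length, which for the Sox2 length ran from 0.733 to 1.5. Without the 28 H3K4me3 bins the Myc ratio was 1.02 (0.939 to 1.12).

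In the Sox2 and Myc windows the ratio differed between the kinds of chromatin. At Pou5f1 H3K27me3 bins were at 1.05 (0.755 to 1.45) and H3K4me3 bins at 0.919 (0.537 to 1.56). Bins called for neither were at 1.04 there (0.844 to 1.28), so these intervals overlapped. Over the 40 kb Sox2 stretch there were 459 reads in MEF and 198 in secondary MEF, a ratio of 0.481 (0.405 to 0.570), while the rest of that window was at 1 (0.927 to 1.09). Among the 1090 autosomal H3K27me3 stretches of 20 kb or more the median ratio was 0.718, with 90% between 0.569 and 0.994, and 0.275% had a lower ratio than that of Sox2. MEF H3K9me3 in the Sox2 stretch, at a mean of 2.93-fold, was above 66.9% of these stretches, so the MEF level was not extreme. The ratio was 0.490 at distinct positions (445 and 195) and 0.494 with scaling by the reads of chromosome 3.

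The other H3K27me3 stretches did not share 1 value. The 9 kb stretch of the Nanog window without called H3K4me3 had 80 MEF and 34 secondary MEF reads, a ratio of 0.474 (0.308 to 0.717). The 5 kb stretch with both marks was at 0.787 (0.520 to 1.18), an interval that includes 1 and overlaps that of the former. The Pou5f1 stretch, at 1.03 (0.750 to 1.41), had an interval that lies above those of the Sox2 stretch and of the 9 kb stretch. H3K27me3 bins without H3K4me3 at large were at 0.742 (0.739 to 0.744). Over H3K4me3 the Myc blocks stood at 1.71 (1.27 to 2.31) and 1.84 (1.42 to 2.41). The window outside each block, which still holds the other block, was at 1.12 (1.03 to 1.22) and 1.10 (1.02 to 1.20). Of the 1708 H3K4me3 stretches 82.3% and 89.7% had lower ratios, and their median ratio was 1.38. H3K4me3 bins without H3K27me3 at large were at 1.44 (1.43 to 1.44). The H3K4me3 peak past Pou5f1 was at 0.919 (0.537 to 1.56). The stretches were set by the marks of MEF, since secondary MEF had H3K9me3 alone among the libraries used here. Cell source and flow cell changed together, so they cannot be told apart.

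**Figure D5:**
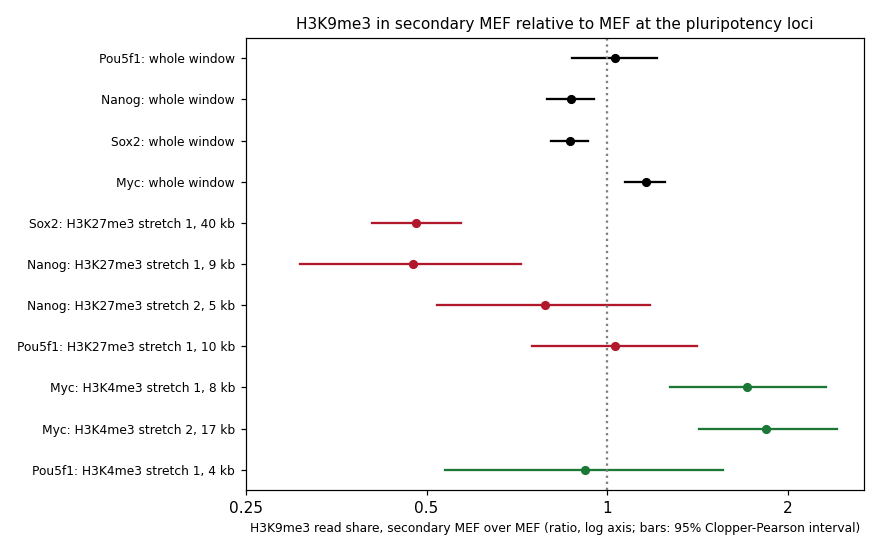
Ratio of H3K9me3 read shares, secondary MEF over MEF, on a log axis, for the 4 windows (black), the leading H3K27me3 stretches (red) and H3K4me3 stretches (green); points are ratios and bars 95% Clopper-Pearson intervals. The Sox2 stretch at 0.481 lies below the line at 1, the Myc blocks at 1.71 and 1.84 lie above it, and the Pou5f1 stretch at 1.03 lies on it.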

How the data were processed

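Reads from ChIP-seq libraries of MEF (H3K4me3, H3K27me3, H3K9me3) and secondary MEF (H3K9me3), 1 each, were used. The deposited values are of another kind than a level: signed genome positions of aligned reads. Per the file headers, the authors aligned to mm8 with Bowtie (-e 70, -k 2, -m 2, -n 2, -l 36, --best), version not given. Per the labels, chromatin had a mean length of 500 bp, with 18 PCR cycles and gel selection of 150 to 350 bp. Reads with 1 location on chromosomes 1 to 19, X and Y (12244567, 9782554, 8912337 and 7985901) were moved 75 bp from the 5′ end, assuming 36-base reads, and counted in 1 kb bins with NumPy 2.4.6 and SciPy 1.17.1. Fold intervals are exact Poisson, ratio intervals Clopper-Pearson. The 3 highest regions per window and library were named; bins outside that rule were chosen after their values were seen. Members and lists were chosen with earlier results of these data known. Stretches and their alternatives were added after seeing the data. Calls were tested on simulated Poisson counts with a flat background, and ratio intervals on simulated Poisson counts. That checks the computation, and it cannot show how well this model holds for real libraries. Planned lists of other pluripotency genes and of fibroblast markers need an annotation on mm8 and were not run.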

Additional observations from a re-analysis of the deposited data

Results flagged for a closer look

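Reads with 2 locations were left out of all levels above and are listed at both. They exceeded the 3 reads that a count of 0 allows in some bins of each window. The bin with the most over the 4 libraries held 18 at Pou5f1 (35118001 to 35119000), 52 in the Nanog window (122758001 to 122759000), 16 at Sox2 (34842001 to 34843000) and 25 in the Myc window (61882001 to 61883000). In the Pou5f1 bin, 4 kb past the start bin, the H3K4me3 library had 1, the H3K27me3 library 5 and the H3K9me3 libraries of MEF and secondary MEF 4 and 8, beside 0, 5, 1 and 9 reads with 1 location. In the Nanog bin H3K4me3 had 27 of the 52 and no read with 1 location, so a level there cannot be read from the counts used above. The Sox2 bin is the one with the highest H3K27me3, and its 7 H3K27me3 reads with 2 locations stand beside 152 with 1.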

How the results depend on the processing

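Of 56 recomputed counts of H3K4me3 and H3K27me3 bins, 53 stayed within 1.5 times. The 53 include H3K27me3 in the Myc window, which was 0 under each setting, so a factor has no meaning there. The exceptions were H3K27me3 in the Nanog window and H3K4me3 in the Sox2 window. The former went from 18 to 9 bins with stricter calls and to 10 against the other MEF marks. The latter went from 7 to 0 against the other MEF marks, fixed in advance by the higher H3K27me3 of those 7 bins. Of 20 recomputed H3K9me3 ratios of windows, 19 stayed within their interval, and the Myc window moved to 1.02 without H3K4me3 bins. All 14 recomputed ratios of stretches stayed within theirs. Counts of H3K9me3 bins, which rest on few reads, moved by more than 1.5 times in 15 of 48 cases. Of 40 recomputed highest levels 4 moved: with bins moved by 500 bp, Nanog H3K4me3 was at 30.1-fold, Sox2 H3K27me3 at 27.5-fold and Myc H3K4me3 at 81.8-fold, and with 1 read per position Myc H3K4me3 was at 107-fold. No paired analysis was possible because each group held 1 library.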
